A study of Mus musculus with 2 samples.

Results

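Keratins are the filament proteins that give epithelial cells their stiffness, and 10 of them that mark simple, basal and differentiated epithelium are described here in embryonic mouse ureters with and without a conditional loss of Gata6. They were chosen by gene name: every non-control probe that the array files name Krt7, Krt8, Krt18 or Krt19 (simple keratins), Krt5, Krt14 or Krt15 (basal keratins), or Krt4, Krt13 or Krt20 (differentiation keratins). The array holds 13 probes for these 10 genes, of 29875 gene names in all. The rule itself reads gene names and no measured value, although the set was drawn up with earlier results of these data known. Of the 10 genes, 9 were above background and were tested, and Krt4 was not.

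Ureters of NMRI embryos at E14.5 were compared in RNA of 4 samples on 2 two-colour Agilent arrays, which hybridise a pair of RNAs in 2 dyes to the same spots. The Gata6cKO embryos carried Tbx18(cre/+);Gata6(fl/fl), that is, both Gata6 copies floxed and cre recombinase in the Tbx18 locus, which is active in the mesenchyme that surrounds the ureteric epithelium. The control embryos were Gata6(fl/?), with at least 1 floxed copy, the other copy not given, and no cre in their labels. Replicate 1 paired a male Gata6cKO RNA in Cy5 with a male control RNA in Cy3, and replicate 2 paired a female Gata6cKO RNA in Cy3 with a female control RNA in Cy5, so sex, array and dye orientation cannot be told apart. Cre was present in both Gata6cKO RNAs and in neither control RNA, so a missing Gata6 and the presence of cre or of the altered Tbx18 copy cannot be told apart either. Whether embryos were pooled is not in the labels. The p-values and SEs measure only a spread between these samples, which may be technical. Most of that spread is pooled over all genes, with 11.9 degrees of freedom against 1 for the gene itself. They therefore say little about a gene's own spread. The dissected ureter holds epithelium, mesenchyme and other cells, and in such bulk RNA fewer cells of a type and less RNA per cell cannot be told apart.

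The median raw spot signal was 425 in the male and 224 in the female Gata6cKO RNA, against 232 in the male and 442 in the female control RNA. On both arrays the higher value was that of the RNA in Cy5. Between 67.2% and 68.5% of spots were well above background in each RNA. The number of arrays limits the precision. The Gata6 probe read higher in Gata6cKO RNA, with a log2 ratio of 0.85 in the male and 0.46 in the female pair (mean 0.65 ± 0.12, moderated SE, n = 2 arrays; limma adjusted p = 0.00612). Whether that probe lies in the deleted part of the gene was not settled, so it checks nothing about the labels, and its call was lost with median centring (adjusted p = 0.625) and without a filter on dim probes (adjusted p = 0.0712).

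Keratin filaments are built from obligate pairs of an acidic type I and a basic type II chain. Krt8 and Krt18 are the pair of single-layered epithelia, joined there by Krt7 and Krt19, whereas Krt5 and Krt14 are the pair of the basal layer of stratified epithelia, where Krt15 is a further type I chain. Krt4 and Krt13 are the pair of the upper layers of stratified epithelia that do not cornify, and Krt20 is a type I keratin of fully differentiated superficial cells of the urothelium, the lining of the urinary tract. The urothelium keeps simple keratins in its layers as it stratifies.

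The sequences below are those that the 3 keratins with a called difference were measured with, because what each spot reports depends on which transcript its 60 bases match. They are copied from the deposited array files, 5′ to 3′ on the transcript strand. The Krt15 and Krt19 probes have an open reading frame over all 60 bases, and capitals mark a TAA stop triplet in frame at the end of the Krt15 probe. Of the Krt20 probe, which has no open frame, the first 30 bases are given.
Krt15: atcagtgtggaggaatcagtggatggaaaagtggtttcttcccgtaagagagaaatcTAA
Krt19: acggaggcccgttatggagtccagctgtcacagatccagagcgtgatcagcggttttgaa
Krt20: ataagaacacagcacaaggtgattgacatg
The files place them on the minus strand of mm9, Krt15 at chr11:99993331-99993390, Krt19 at chr11:100002392-100002451 and Krt20 at chr11:99289776-99289835. None of the 3 shares a run of 12 or more bases with a probe of another keratin. The longest run that each shares with any probe of another name is 13 bases for Krt15 and Krt19 and 14 bases for Krt20. Exon annotation on mm9 was not used here.

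In Gata6cKO ureters 3 of the 9 tested keratins fell, 1 from each class: Krt19 among the simple, Krt15 among the basal and Krt20 among the differentiation keratins. None rose. The levels were 1.81-fold lower for Krt19, 2.06-fold lower for Krt15 and 2.08-fold lower for Krt20. The folds of Krt15 and Krt20 come from dim probes and are understated, as set out below. Over all 19801 genes tested, 2.35% were called lower and 2.2% higher (limma, Benjamini-Hochberg adjusted p under 0.05). Of the 9 tested keratins, 7 were lower on both arrays, against 25.5% of all genes tested, and 1 was higher on both, against 23.4%. In 7 the values of both Gata6cKO RNAs lay below those of both control RNAs, which held for 17.5% of all genes tested, and in 1 they lay above, which held for 15.9%. The 9 keratins were well above background in each of the 4 RNAs. The spots of a probe are technical repeats. The SD of their log2 ratios was 0.02 and 0.02 for Krt19, 0.09 and 0.08 for Krt15 and 0.03 and 0.06 for Krt20 on the male and female arrays, against a median of 0.0421 over all kept probes. The median log2 ratio of the tested keratins was -0.35, against -0.00 over all genes tested.

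**Figure D1:**
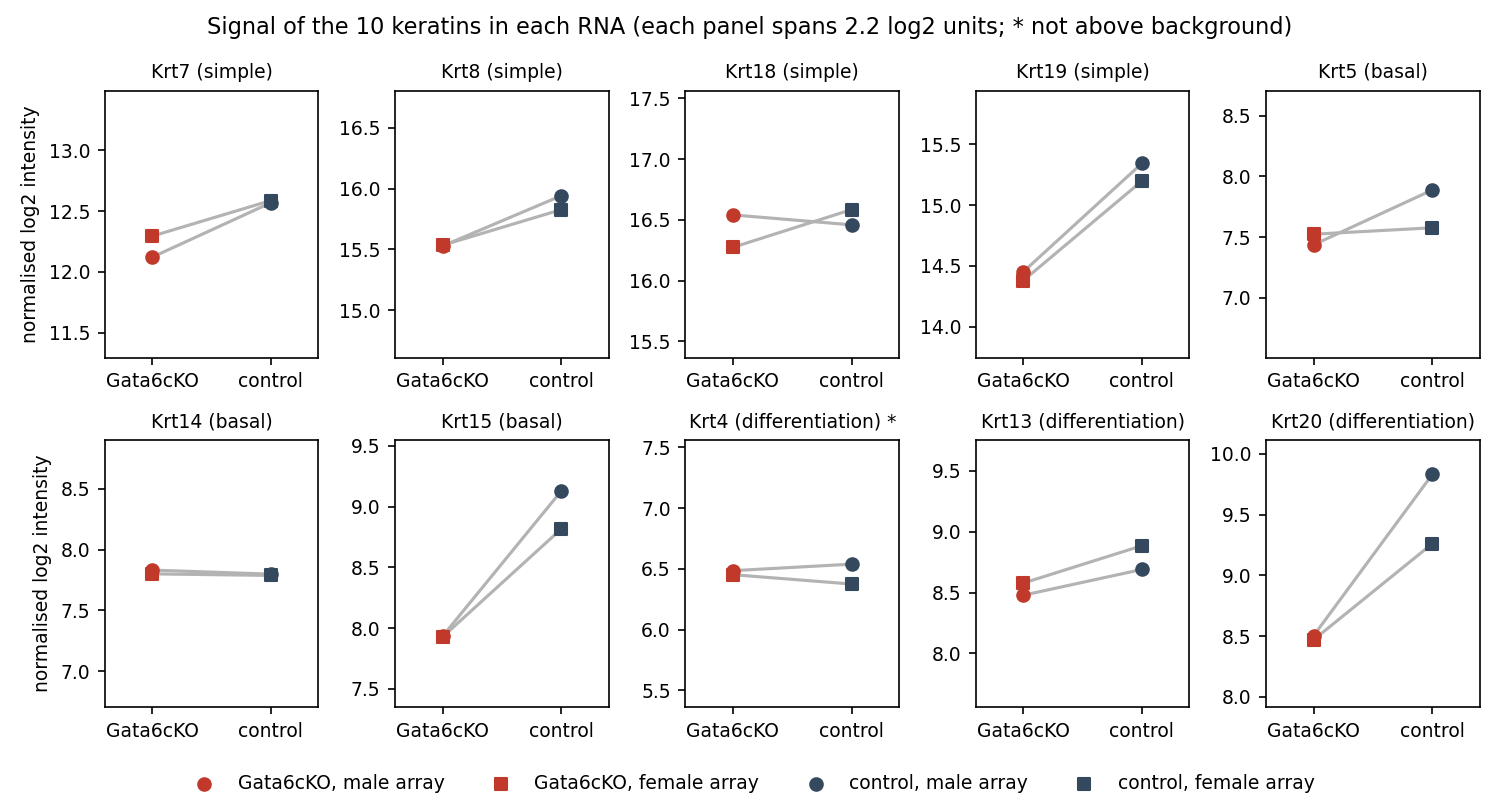
Normalised log2 intensity (vertical axis, each panel spanning the same range) of the 10 keratins in each RNA, Gata6cKO left and control right, with circles for the male and squares for the female array and a line joining the 2 RNAs of an array. Krt15, Krt19 and Krt20 have the steepest lines, the lines of Krt18 cross, and Krt4 was not above background.

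Levels below are normalised log2 intensities, which can be compared between RNAs for a probe but not between probes. Among the simple keratins, Krt19, the type I chain that lacks most of the tail domain of other keratins, read 14.45 and 14.38 in the male and female Gata6cKO RNA, against 15.34 and 15.20 in the male and female control RNA. Both Gata6cKO values lay well below both control values, and the values within a genotype were close to each other. On the scanner's own processed scale the spots averaged 6075 and 5770 intensity units in Gata6cKO, against 11038 and 10403 in control. The log2 ratio was -0.89 in the male and -0.82 in the female pair (mean -0.86 ± 0.11, moderated SE, n = 2 arrays; limma adjusted p = 0.000420). The 95% interval ran from -1.09 to -0.62.

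Krt7, a type II chain of ductal and urothelial cells, read 12.12 and 12.29 in Gata6cKO, against 12.57 and 12.59 in control. The genotypes did not overlap. Its log2 ratio of -0.37 ± 0.11 missed the threshold (limma adjusted p = 0.0974), with -0.45 in the male and -0.29 in the female pair and an interval from -0.61 to -0.13.

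Krt8, the general type II chain of simple epithelia, has 2 kept probes, and their sequences are given because the probes gave unequal ratios. The brighter probe stands for the gene and lies at chr15:101827138-101827197 (mm9, minus strand). It holds the hexamer AATAAA, the common polyadenylation signal, marked in capitals within the 30 bases shown. Probes that hold this hexamer were not scored for an open frame. The other lies at chr15:101828827-101828886 on the same strand and has an open frame throughout.
Krt8, brighter probe: tgtattttctaaAATAAAgcctcagctggc
Krt8, other probe: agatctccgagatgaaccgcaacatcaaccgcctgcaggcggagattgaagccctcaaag
The brighter probe read 15.53 and 15.53 in Gata6cKO, against 15.94 and 15.83 in control, and the genotypes did not overlap. Its log2 ratio was -0.35 ± 0.11, with -0.41 in the male and -0.29 in the female pair and an interval from -0.59 to -0.11, and it missed the threshold (limma adjusted p = 0.116). The other probe read 13.78 and 13.91 in Gata6cKO, against 13.83 and 14.18 in control, and here the genotypes overlapped. Its log2 ratio was -0.16, with -0.04 in the male and -0.27 in the female pair, and it did not pass either when each probe was fitted on its own (limma adjusted p = 0.905). AATAAA was searched on the probe's own strand, and 12.6% of all array probes with a sequence hold it.

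Krt18, the type I partner of Krt8, read 16.54 and 16.27 in Gata6cKO, against 16.46 and 16.59 in control. The genotypes overlapped, since the Gata6cKO RNA was the higher of the pair on the male array and the lower on the female array. The log2 ratios were 0.08 and -0.31 in these pairs (mean -0.11 ± 0.12; limma adjusted p = 1.00), with an interval from -0.38 to 0.15. The 4 simple keratins together had a median log2 ratio of -0.36, with -0.43 in the male and -0.30 in the female pair.

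Among the basal keratins, Krt15 read 7.93 and 7.93 in the male and female Gata6cKO RNA, against 9.13 and 8.81 in the male and female control RNA. The Gata6cKO RNAs were alike and lay below both control RNAs. The processed signals were 45.1 and 46.8 in Gata6cKO, against 130 and 105 in control, so the probe was dim but above background in every RNA. The log2 ratio was -1.19 in the male and -0.89 in the female pair (mean -1.04 ± 0.12, moderated SE, n = 2 arrays; limma adjusted p = 0.000154), with an interval from -1.30 to -0.79. Because the background correction adds an offset of 50 units to each signal, ratios of dim probes such as this are understated: the deposited series values gave log2 ratios of -1.48 in the male and -1.14 in the female pair for it.

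Krt5, the type II chain of basal cells, read 7.44 and 7.52 in Gata6cKO, against 7.89 and 7.58 in control. The genotypes did not overlap, but the female pair was nearly equal: the log2 ratios were -0.45 in the male and -0.05 in the female pair. The mean of -0.25 ± 0.12 did not pass (limma adjusted p = 0.505), with an interval from -0.52 to 0.01. Its processed signals were 27.9 and 31.5 in Gata6cKO, against 45.8 and 33.4 in control, so the offset pulls its ratio toward 0 as well. With the deposited series values in place of the scanner signals Krt5 passed, at a log2 ratio of -0.48 (limma adjusted p = 0.0211). A further Krt5 probe had no spot well above background in any RNA.

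Krt14, the type I partner of Krt5, read 7.83 and 7.80 in Gata6cKO, against 7.80 and 7.79 in control. The 4 values were nearly equal, and the Gata6cKO values were the higher ones by a small margin. The log2 ratio was 0.03 in the male and 0.01 in the female pair (mean 0.02 ± 0.11; limma adjusted p = 1.00), and its interval from -0.21 to 0.26 does not reach the mean of Krt15. This probe is dim too, with processed signals of 43.6 and 45.9 in Gata6cKO, against 41.2 and 43.4 in control. The offset therefore pulls its ratio and interval toward 0. The deposited series values gave log2 ratios of 0.14 in the male and 0.03 in the female pair. The 3 basal keratins had a median log2 ratio of -0.25, with -0.45 in the male and -0.05 in the female pair.

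Among the differentiation keratins, Krt20 read 8.50 and 8.47 in the male and female Gata6cKO RNA, against 9.83 and 9.26 in the male and female control RNA. The Gata6cKO RNAs were again alike, the control RNAs were not, and the genotypes did not overlap. Processed signals were 81.1 and 81.6 in Gata6cKO, against 234 and 157 in control. The log2 ratio was -1.33 in the male and -0.79 in the female pair (mean -1.06 ± 0.13, moderated SE, n = 2 arrays; limma adjusted p = 0.000346), with an interval from -1.35 to -0.77. The gap of 0.54 between the arrays was wide: only 4.05% of all genes tested had a wider one, and the median gap was 0.16. As for Krt15, the probe is dim and the offset understates its ratios. The deposited series values gave log2 ratios of -1.63 in the male and -0.94 in the female pair for Krt20.

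Krt13, the type I chain of intermediate and upper cells, read 8.48 and 8.58 in Gata6cKO, against 8.69 and 8.88 in control. The genotypes did not overlap, and the log2 ratio was -0.21 in the male and -0.31 in the female pair. The mean of -0.26 ± 0.11 did not pass (limma adjusted p = 0.354), with an interval from -0.50 to -0.02. A further Krt13 probe was not well above background.

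Krt4, the type II partner of Krt13, was not well above background: of its 4 spots per array, 1 in the male and 0 in the female pair passed in Gata6cKO, against 2 and 0 in control. It read 6.49 and 6.45 in Gata6cKO, against 6.54 and 6.37 in control, and no fold is given. The median log2 ratio of the 2 tested differentiation keratins was -0.66, with -0.77 in the male and -0.55 in the female pair.

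**Figure D2:**
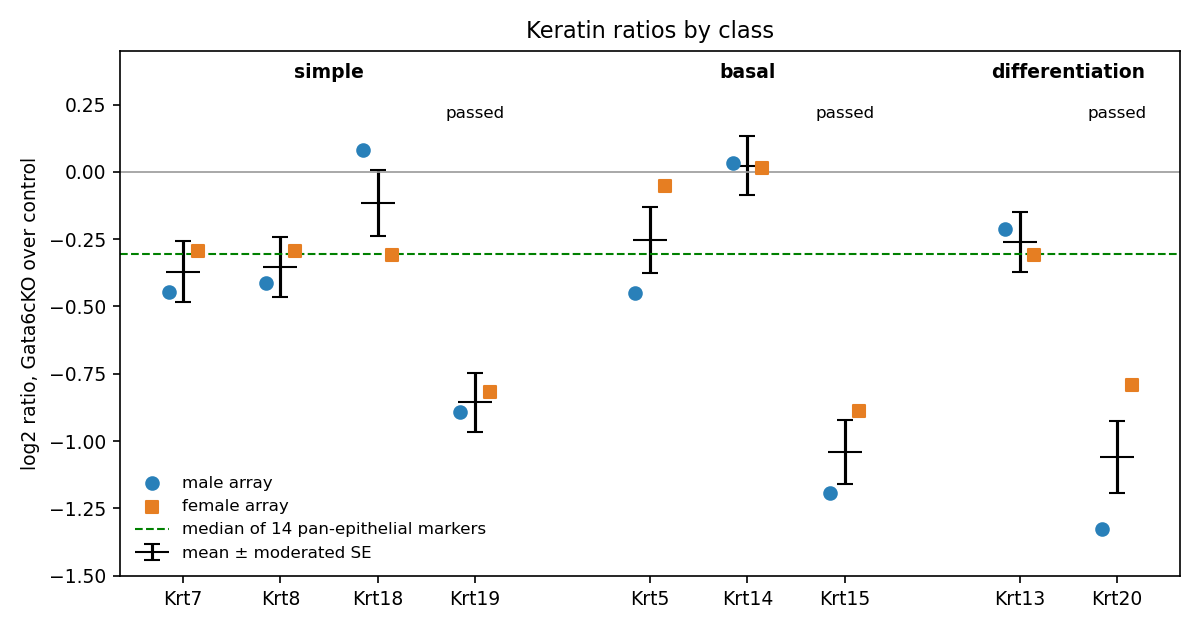
Log2 ratio of Gata6cKO over control (vertical axis) of the 9 tested keratins by class, with the male array as circles, the female array as squares, and the mean with its moderated SE as a black bar. Krt19, Krt15 and Krt20 passed the test, at means of -0.86, -1.04 and -1.06, and lie below the dashed line, the median of -0.31 over 14 pan-epithelial markers.

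The class medians differed less than the members within each class. The median of the differentiation keratins lay 0.30 below that of the simple keratins (differences of -0.34 in the male and -0.25 in the female pair). It lay 0.41 below that of the basal keratins, with -0.32 in the male and -0.50 in the female pair. The basal minus simple difference was 0.11, with -0.02 in the male and 0.25 in the female pair, so its sign was not shared. The order of the classes depended on the setting: the basal median was -0.41 with processed signals and -0.48 with the deposited series values, against simple medians of -0.36 and -0.36. With no filter on dim probes, where Krt4 is included, the differentiation median was -0.26, above the simple one. Within the basal class, by contrast, the ratios of Krt14 and Krt15, both from dim probes, were 0.02 and -1.04. The differences between classes were not tested, since each class median rests on 2 to 4 genes.

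The ratios of usual filament partners were set side by side. Krt7, the type II chain, had a log2 ratio 0.49 above that of Krt19, a frequent type I partner, with 0.44 in the male and 0.53 in the female pair. By its brighter probe Krt8 lay 0.24 below Krt18, with -0.50 in the male and 0.02 in the female pair. The other Krt8 probe, at a mean of -0.16, was close to the -0.11 of Krt18. Krt5 lay 0.27 below Krt14, with -0.48 in the male and -0.07 in the female pair. The Krt7 and Krt19 difference was alike on the 2 arrays, and the other differences were wider on the male array. These differences in ratio were not tested.

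The 3 keratins that fell are type I chains of 1 gene cluster on chromosome 11. On mm9 the probes of Krt13, Krt15 and Krt19 follow each other there among the tested keratins, Krt13 at chr11:99982471-99982530, and Krt14 lies further on at chr11:100064683-100065288. Of 14 keratins tested in that cluster 4 fell, with a median log2 ratio of -0.10. Of 16 tested in the cluster on chromosome 15, which holds the type II genes and Krt18, 1 fell, with a median of -0.14. The nearest tested keratins on either side of Krt15 and Krt19 did not pass: Krt9, whose probe follows that of Krt19, had a log2 ratio of 0.10, and Krt13 on the other side had -0.26.

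**Figure D3:**
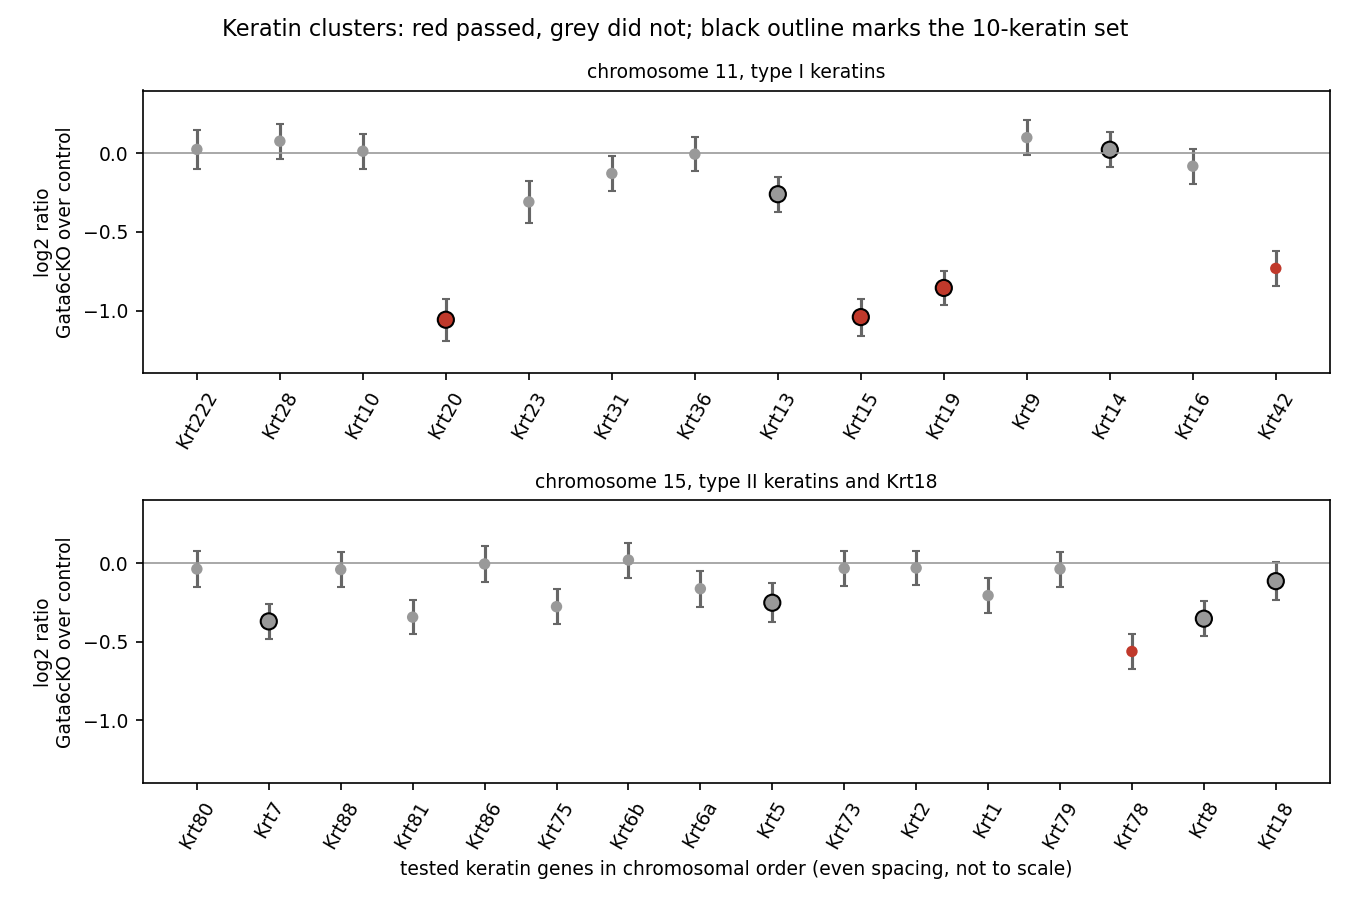
Log2 ratio of Gata6cKO over control (vertical axis, mean and moderated SE) of the tested keratins in chromosomal order on chromosome 11 (above) and chromosome 15 (below), evenly spaced. Red points passed the test and black outlines mark the 10 keratins described here. Krt20, Krt15, Krt19 and Krt42 passed on chromosome 11, and Krt78 on chromosome 15.

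Of the 44 other keratin genes on the array, most of them keratins of hair and of cornifying skin, 22 were above background and tested. Among these 2 fell and none rose, and their median log2 ratio was -0.04. One of the 2, Krt78, entered the test only through the control RNAs, where it was the higher. Krt42, a type I keratin, read 11.02 and 11.10 in Gata6cKO, against 11.83 and 11.75 in control (log2 ratio -0.73 ± 0.11; limma adjusted p = 0.00143). Krt78, a type II keratin, was not well above background in Gata6cKO and was at least 1.39-fold lower there (limma adjusted p = 0.00880, and 0.0429 with no filter on dim probes). Neither call held with median centring in place of loess, where the adjusted p was 0.133 for Krt42 and 0.981 for Krt78.

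Set beside markers found in most epithelia, the 3 called keratins had lower ratios than any of them. Of 14 tested pan-epithelial markers 4 fell and none rose, with a median log2 ratio of -0.31: Cdh1 (E-cadherin) at -0.64, Esrp2, an epithelial splicing factor, at -0.59, Cldn4 (a tight junction claudin) at -0.55 and Spint1, a protease inhibitor, at -0.48. With median centring none of these 4 passed, and without a filter on dim probes 1 did. Epcam, a surface protein of epithelial cells, did not pass, at a log2 ratio of -0.19 (limma adjusted p = 0.770). Relative to the median of these markers, the log2 ratio of Krt15 was lower by 0.74, that of Krt19 by 0.55 and that of Krt20 by 0.75, and each was also lower on the arrays taken one by one. The difference from that median was -0.93 for Krt15, -0.63 for Krt19 and -1.06 for Krt20 on the male array. On the female array it was -0.51, -0.44 and -0.41 in the same order of genes. By their mean ratios, Krt7, Krt8, Krt5 and Krt13 lay within 0.07 of the marker median, at -0.07, -0.05, 0.05 and 0.05. For Krt7, Krt8 and Krt5 the sign was not shared by the arrays. Their differences were -0.18, -0.15 and -0.19 in the male pair. In the female pair they were 0.08, 0.09 and 0.32. Krt13 lay above the marker median in both pairs, by 0.05 and 0.07. Krt18 and Krt14 had mean ratios above the marker median, by 0.19 and 0.33, and above each of the 14 markers. The summed signal of the pan-epithelial markers was 62935 and 59839 in Gata6cKO, against 78704 and 74106 in control. A median near that of these markers, -0.33, was also found for the 10 mesenchymal genes described below. The part of a lower epithelial signal in the keratin ratios was not tested.

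**Figure D4:**
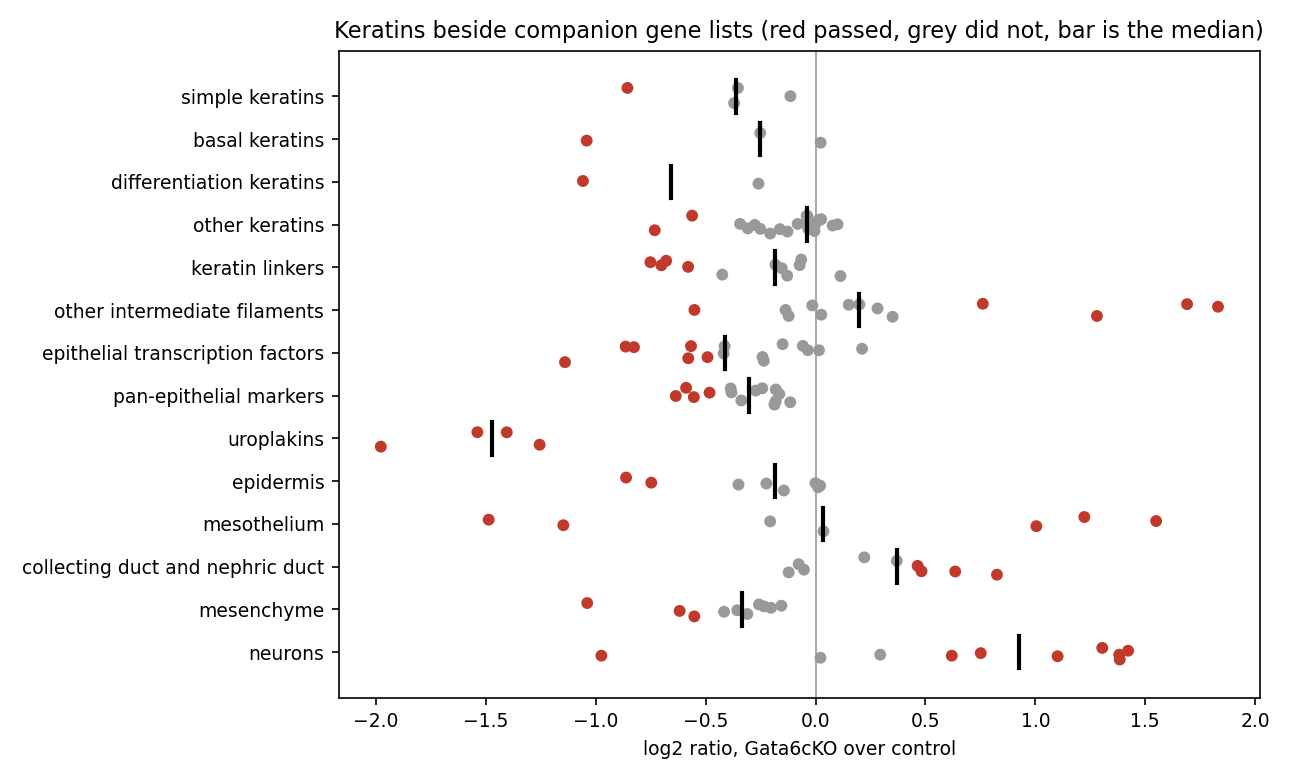
Log2 ratio of Gata6cKO over control (horizontal axis) of each tested gene in the 3 keratin classes and in 11 companion lists, with red points for genes that passed, grey for those that did not, and a black bar for the list's median (vertical scatter within a list has no meaning). The uroplakins have the lowest median, -1.47, and the neuronal genes the highest, 0.93.

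All 4 uroplakins, the plaque proteins of superficial urothelial cells, fell, with a median log2 ratio of -1.47, from -1.98 for Upk1b to -1.26 for Upk3a. Their summed signal was 6682 and 6346 in Gata6cKO, against 20844 and 15360 in control. The uroplakins had the higher of the 2 control values on the male array. So did Krt20, Krt15, Krt19, Krt8 by its brighter probe, Krt5 and, by a small margin, Krt14, but not Krt7, Krt13 and Krt18. The other Krt8 probe had the lower control value on the male array, 13.83 against 14.18 on the female array. Of 15 epithelial transcription factors 6 fell and none rose, with a median of -0.41: Grhl3, a factor of epidermal and urothelial terminal differentiation, at -1.14, Klf5 at -0.86, Tfap2c at -0.83 and Pparg, a nuclear receptor of urothelial differentiation, at -0.58 were the 4 with the smallest p. Trp63, the factor of basal cells that activates Krt5 and Krt14, did not pass, at a log2 ratio of -0.15 (limma adjusted p = 1.00). The arrays differed in sign, with 0.10 in the male and -0.40 in the female pair for the brightest of its 4 kept probes. Only 2 of the 6 calls, those of Grhl3 and Klf5, held with median centring.

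Keratins work with linkers that tie their filaments to desmosomes and to the other filaments of the cell. Of 11 linkers tested, 4 fell and none rose, with a median of -0.18. One of the 4, Pkp1, entered the test only through the control RNAs, where it was the higher. Eppk1 (epiplakin) read 9.17 and 8.84 in Gata6cKO, against 9.90 and 9.61 in control, a log2 ratio of -0.75 ± 0.11 (limma adjusted p = 0.00103). Evpl (envoplakin) and Ppl (periplakin), which pair with each other, had log2 ratios of -0.70 and -0.68 (limma adjusted p = 0.00247 and 0.00443). Pkp1 (plakophilin 1 of desmosomes) was not well above background in Gata6cKO and was at least 1.30-fold lower there (limma adjusted p = 0.00659, and 0.0366 with no filter on dim probes). Dsp (desmoplakin), which anchors keratins in desmosomes, missed the threshold at -0.42 (limma adjusted p = 0.0516), and Jup (plakoglobin) at -0.07 and Plec (plectin) at -0.18 did not pass. None of the 4 linker calls held with median centring.

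Markers of other epithelia and cell types that a dissected ureter could hold moved both ways. Of 8 tested epidermal genes 2 fell, Ivl (involucrin) at -0.86 and Sfn (stratifin) at -0.75, and none rose. Ivl is dim, and its log2 ratio was -1.75 with processed signals and -1.74 with the deposited series values. Of 9 tested genes of the collecting duct and nephric duct none fell and 4 rose, with Wnt9b at 0.83 and Ret at 0.64. Of 7 tested mesothelial genes, whose tissue also makes simple keratins, 3 rose (Rspo1 at 1.55, Wt1 at 1.22 and Igfbp6 at 1.00) and 2 fell (Msln at -1.49 and Upk3b, at least 2.17-fold lower). Upk3b was not well above background in Gata6cKO and entered the test only through the control RNAs, where it was the higher (limma adjusted p = 0.00830 with no filter on dim probes). The median log2 ratio of the 7 mesothelial genes was 0.04, with 0.17 in the male and -0.10 in the female pair. Their summed signal was 23842 and 20092 in Gata6cKO, against 15775 and 11855 in control. In such a sum the bright probes weigh most, here in Gata6cKO those of Wt1 and Igfbp6, which both rose. With median centring none of the epidermal and duct calls held, and all of the mesothelial calls did. Lrrn4, Muc16 and Bnc1, also on the mesothelial list, were not tested. The part of these cells in the keratin ratios was not tested.

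Outside the keratins, other intermediate filament genes differed in direction. Of 13 tested, 4 rose, all of them filaments of neurons: Nefm at 1.83, Nefl at 1.69, Prph (peripherin) at 1.28 and Ina (internexin) at 0.76. Lmnb1 (lamin B1) fell by 0.55 on the log2 scale (limma adjusted p = 0.0443), a call that was lost in 5 of 9 other settings, and the call of Ina was lost with median centring. Of 10 neuronal markers 7 rose and 1 fell, with a median of 0.93 and a summed signal of 48906 and 46825 in Gata6cKO, against 36711 and 38867 in control. With median centring, and likewise with no filter on dim probes, 5 of these rose. Of 10 mesenchymal genes 3 fell and none rose, with a median of -0.33, and 1 (Twist1) fell with median centring.

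The genes nearest to each called keratin over the 2 array ratios were found by Euclidean distance, a likeness that rests on 2 points and on the offset of 50. Those nearest to Krt15 were Ccdc68 (-1.22 in the male and -0.87 in the female pair), Acsm3 and Ankrd22, and 6 genes lay within a distance of 0.1. Those nearest to Krt19 were Fam83g (-0.88 and -0.82), Pof1b and Fmo1, with 16 genes within 0.1. Those nearest to Krt20 were Mir205hg (-1.30 and -0.76), Itgb4 and Upk3bl, with 3 genes within 0.1. The likeness depended on the setting, and 3 of these genes moved furthest from their keratin with processed signals. Their mean log2 ratio was then -1.99 for Acsm3 and -1.95 for Ankrd22, against -1.35 for Krt15. It was -2.29 for Pof1b, against -0.86 for Krt19. In that setting the means of Ccdc68, Mir205hg, Itgb4 and Upk3bl also lay over 0.1 above that of their keratin. Those of Fam83g and Fmo1 stayed within 0.1 of that of Krt19.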

How the data were processed

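Both arrays lay on 1 slide and share 1 scan, per the file headers. Each deposited scanner file holds the raw intensity of every spot and of its local background in Cy3 and Cy5. It also holds the intensity after the authors' processing in Agilent Feature Extraction (10.7.3.1, per the submitters' processing notes), which was detrended and dye-corrected, and, per the file headers, the log10 ratio of Cy5 to Cy3 made from it. As for the deposited series values, they are a score. They were read here as linear folds of Gata6cKO over control that carry a sign, since 0 of them lie between -1 and 1. On the log2 scale these deposited values had a Pearson r of 0.985 (male array) and 0.980 (female array) with the processed ratios across probes. There were 0 unused per-sample columns.

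Log2 ratios were computed from the raw signals with limma 3.58.1 (R 4.3.3, with data.table (1.17.8) and statmod 1.5.0). Steps were normexp background correction with an offset of 50 and loess within each array, leaving out control and outlier spots. Probes stayed in if 3 or more of 4 spots stood well above background in 1 genotype on both arrays, 26200 of 39429 in all. The brightest such probe represented a gene (5046 genes had several). Intensities per RNA were further scaled between arrays (Aquantile). Gene names are those of the files, updated through the RefSeq table of GRCm38.p6, from which nothing but names was taken: 28328 probes were found by accession, 1602 symbols changed and 31971 were in the table. The files give mm9 coordinates.

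The ratios of Gata6cKO over control, turned in sign where the dyes were exchanged, were fitted with lmFit and eBayes, each array being its own pair (1 residual and 11.9 prior degrees of freedom, prior SD 0.162). Two-sided p-values were adjusted over 19801 genes (Benjamini-Hochberg, threshold 0.05). The code of the fit was run on simulated ratios drawn from its own estimated prior, which cannot show how it does on these arrays. A probe not well above background in 1 genotype gets a bound, at least N-fold. Named were all 10 keratins, other keratins that passed, up to 4 genes with the smallest p of each list, and for each called keratin the 3 nearest genes. Further genes named (Epcam, Trp63, Dsp, Jup, Plec, Igfbp6, Lmnb1, Krt9, Krt222) were picked after their values were seen. The keratins and lists were chosen with earlier results of these data known. Alternatives were processed signals, an offset of 10, median centring, no filter, the mean of probes, each probe fitted on its own, separate channels, an intensity trend, the deposited series values, and each array left out in turn.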

Additional observations from a re-analysis of the deposited data

Results flagged for a closer look

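Krt18, the type I chain of simple epithelia, had opposite directions on the 2 arrays: its log2 ratio of Gata6cKO over control was 0.082 on the male array and -0.31 on the female array. The gap of 0.39 between them was wider than that of most genes, with 11.1% of all genes tested having a wider one. With 1 array per sex the difference was not tested, and sex, array and dye orientation cannot be told apart. None of the other 8 tested members of the set of 10 changed sign between the arrays, whereas 8 of the 22 tested keratins outside it did, among them Krt222 (0.23 in the male and -0.18 in the female pair).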

How the results depend on the processing

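The calls of Krt15, Krt19 and Krt20 were kept in all 9 alternative settings, with log2 ratios from -1.35 to -1.03, from -0.91 to -0.85 and from -1.29 to -1.05, and a highest adjusted p of 0.0173, 0.0295 and 0.0330. With either array left out, where there is no test, they were -1.19 and -0.89, -0.89 and -0.82, and -1.33 and -0.79. No other keratin of the 10 passed in any setting except Krt5 with the deposited series values, which called 4 keratins lower. Without a filter on dim probes Krt4 entered the differentiation keratins, and their median became -0.26 over 3 genes. The whole-array counts of 465 lower and 436 higher genes moved more: to 100 and 90 with median centring, to 229 and 248 of 29875 genes with no filter, to 299 lower and 321 higher with separate channels, and to 795 and 672 with the deposited series values. The cause was not tested. Of the 70 genes followed, Krt4 was not tested and had no direction to compare, and no other turned its direction in any of the 9 settings. Median centring ended 30 calls among them, no filter 13 and separate channels 9, none of them of the 10 keratins. Signal over background limits Krt4, Krt78, Pkp1 and Upk3b, and 7 of the followed genes, none of them among the 10 keratins, moved by over 1.5 times with processed signals (Acsm3, Ankrd22, Ivl, Krt78, Pkp1, Pof1b and Upk3b).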
